A study of Gallus gallus with 18 samples.

Results

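Livers of broiler chickens fed a diet with 7.5% insect meal were compared with livers of broilers fed no insect meal. The 6 arrays labelled HI7.5 and the 6 labelled HI0 were taken by their diet label, which gave 12 of the 18 arrays of the series. HI stands for Hermetia illucens, the black soldier fly, whose larvae had been ground and partially defatted. Male Cobb 500 broilers entered the trial at 1 day of age and ate their diet for 35 d. HI0 held 0 g of larvae meal per kg of diet, HI7.5 held 75 g per kg, and the remaining 6 arrays came from HI15, with 150 g per kg. The meal replaced wheat, soybean oil and extracted soybean meal, and in all 3 diets synthetic amino acids brought the essential amino acids to the recommended level. The 72 birds lived in cages of 4, and the labels do not say which bird or cage an array came from, so the p-values measure only the spread between these liver samples.

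The avian liver makes most of the bird's fatty acids and lipoproteins, synthesises bile acids, and turns surplus nitrogen from amino acids into uric acid through purine synthesis. Insect meal differs from soybean meal in its fats and its sterols and carries chitin, the polymer of the insect cuticle. Genes of lipid, sterol, nitrogen and glycan metabolism were therefore listed beside genes of cell division, defence and stress. A microRNA gene on the array stands for a short RNA that, in its mature form, represses messenger RNAs. Its probes can also bind the longer precursor, and the values do not tell the forms apart.

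Each value is a log2 signal of a probe set, a group of short probes that together measure 1 transcript. A difference of 1 in log2 is a doubling in either direction. Differences are given as HI7.5 minus HI0, many of them with their standard error (SE). Array medians lay between 7.23 and 7.31, and the 12 arrays correlated with each other at 0.966 to 0.988. The liver label matched the signals: ALB, the gene of serum albumin, was between 14.41 and 14.54 (median 14.52) in HI0 and between 14.41 and 14.54 (median 14.53) in HI7.5. The 13 measured hepatocyte genes had a median difference of 0.04 between the diets, and the 95% intervals of 12 of them lay within 1.25-fold. The arrays differed in the width of their signal distribution. The interquartile range of an array was 2.36 ± 0.14 (SD) in HI0 and 2.44 ± 0.17 in HI7.5 (exact permutation test over 924 splits, two-sided p = 0.420). The same width followed the first principal component of the 18 arrays, which held 23.2% of the variance (r = 0.988 over 18 arrays, given as a description).

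No gene passed the test between the diets. Over 18226 probe sets, limma called 0 (0%) at an adjusted p of 0.05, and the smallest adjusted p was 0.999. At an unadjusted p of 0.05, 187 probe sets (1.03%) were higher and 378 (2.07%) lower in HI7.5. Without HI7.5 replicate 6 those counts were 305 and 682, and without HI0 replicate 6 the lower count was 671. Of 11528 named genes, each represented by its brightest probe set, 110 (0.954%) were higher and 195 (1.69%) lower at that p. The arrays bounded most differences closely, since the 95% interval reached 0.257 to each side at the median, or 1.19-fold. The interval lay within 1.5-fold for 93.5% of genes and within 1.25-fold for 48.5%. Gene values below are thus descriptions of these 12 livers, and an SE or 95% interval, where given, comes from limma. The leading genes were picked by the unadjusted p of that fit and are not listed strictly in its order.

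Among the genes with higher signal at 7.5% meal, the smallest p belonged to TM4SF4, a tetraspan membrane protein of liver and gut epithelium. It lay between 11.40 and 11.80 (median 11.68) in HI0 and between 11.88 and 12.14 (median 11.95) in HI7.5. The 2 ranges did not overlap, and the difference was 0.35 ± 0.09, or 1.28-fold, with a 95% interval of 0.17 to 0.54 (limma adjusted p = 0.999, higher in 6 of 6 arrays than the HI0 mean). TLE1, a transcriptional corepressor of the Groucho family, lay between 7.40 and 7.80 (median 7.60) in HI0 and between 7.63 and 8.29 (median 7.94) in HI7.5. Its ranges overlapped at 1 end, and the difference was 0.37 ± 0.10. PSAT1, the aminotransferase of serine synthesis, lay between 11.15 and 11.60 (median 11.25) in HI0 and between 11.32 and 11.96 (median 11.80) in HI7.5. Most HI7.5 arrays were above every HI0 array for this gene, and the difference was 0.43 ± 0.12, with an interval of 0.17 to 0.68. CLDN10, a claudin of tight junctions, had a difference of 0.42 ± 0.12, with medians of 5.59 in HI0 and 6.05 in HI7.5.

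The other genes of this kind were SNORD20, a small nucleolar RNA, at 0.54 ± 0.17, and NUP210, a nuclear pore glycoprotein, at 0.42 ± 0.14. PCDH7, a protocadherin of cell adhesion, lay between 7.27 and 9.09 (median 7.55) in HI0 and between 8.10 and 8.92 (median 8.50) in HI7.5. A single HI0 array held the 9.09, while the other HI0 arrays were at 7.27 to 7.86. Its difference was 0.72 ± 0.24, was 0.99 without that array, and was 0.74 ± 0.21 in the gene's other probe set. MAP3K7CL lay between 6.66 and 8.68 (median 7.92) in HI0 and between 8.02 and 9.53 (median 9.0) in HI7.5, a difference of 0.99 ± 0.35. ACAT2, the cytosolic thiolase at the entry of sterol synthesis, was between 9.59 and 10.11 (median 9.71) in HI0 and between 9.94 and 10.56 (median 10.06) in HI7.5. All but 1 of its HI0 arrays were below the lowest HI7.5 array, and the difference was 0.38 ± 0.13. TPTE, CPAMD8 and LOC770870 completed the 12 with differences of 0.43, 0.26 and 0.29.

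Among the genes with lower signal, the smallest p was that of MIR34B, a member of the miR-34 family, which in mammals is a target of p53. It lay between 3.83 and 4.79 (median 4.25) in HI0 and between 2.94 and 3.84 (median 3.49) in HI7.5. The ranges met at their edges, with a difference of -0.86 ± 0.19 and an interval of -1.25 to -0.46 (limma adjusted p = 0.999, lower in 6 of 6 arrays than the HI0 mean). Leaving out any 1 array kept it between -0.95 and -0.75. Its signal was near the floor of the array, and its level in HI15 was 3.70. CDCP1, a transmembrane substrate of SRC family kinases, lay between 5.97 and 6.21 (median 6.14) in HI0 and between 5.46 and 5.87 (median 5.75) in HI7.5. Every HI7.5 array was below every HI0 array for CDCP1, and the difference was -0.42 ± 0.10, with an interval of -0.63 to -0.22. IMMP2L, a peptidase subunit of the inner mitochondrial membrane, was at medians of 7.21 and 6.77 in HI0 and HI7.5, a difference of -0.47 ± 0.13.

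SHCBP1, a protein of the midbody in dividing cells, lay between 6.07 and 6.43 (median 6.16) in HI0 and between 5.48 and 6.10 (median 5.85) in HI7.5. Its ranges overlapped by little, and the difference was -0.37 ± 0.10. LACTB, a serine protease-like protein of mitochondria and the brightest of the 12 lower genes, lay between 10.41 and 10.79 (median 10.73) in HI0 and between 10.07 and 10.60 (median 10.30) in HI7.5. Its difference was -0.35 ± 0.11, and that of TERF1, a telomere repeat binding protein, was -0.37 ± 0.11. The voltage-gated potassium channel gene KCNA5 was at -0.39 ± 0.12 and the RNA-binding protein gene KHDRBS2 at -0.42 ± 0.13. LRRC18 was at -0.52 ± 0.15 and the decarboxylase gene GADL1 at -0.34 ± 0.10. KCNA5, KHDRBS2, LRRC18 and GADL1 were dim, with mean signals of 4.91, 5.54, 3.95 and 5.21 over 18 arrays. Of the 12 lower genes, the remaining 2 were microRNA genes. MIR27B was at 5.40 at the HI0 median and 4.81 at the HI7.5 median, a difference of -0.48 ± 0.14, and MIRLET7F1 at 3.71 and 3.25, a difference of -0.66 ± 0.20.

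**Figure D1:**
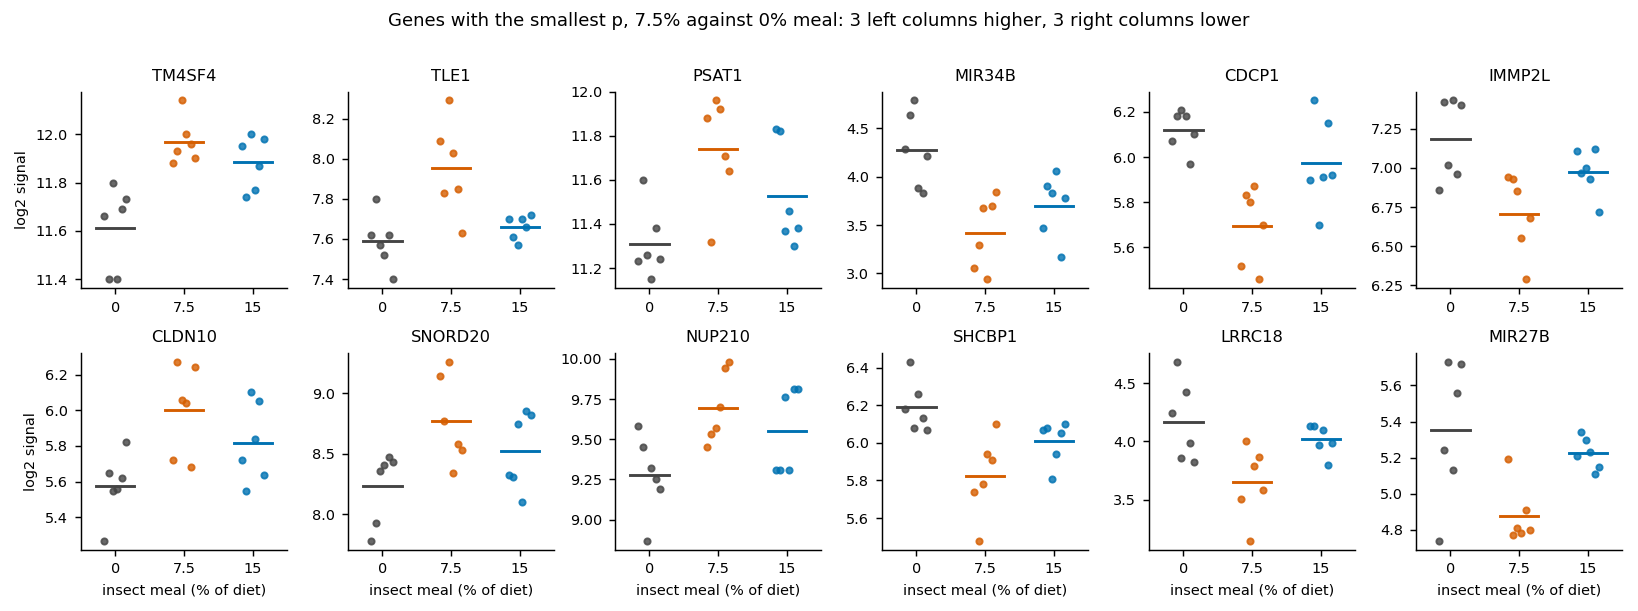
Log2 signal (vertical axis) of the 6 higher and 6 lower genes with the smallest p, for each array (points) and diet mean (lines) at 0, 7.5 and 15% insect meal (horizontal axis). TM4SF4 and CDCP1 have HI7.5 arrays that lie wholly outside their HI0 arrays, while the ranges of the other 10 genes overlap.

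Of the largest differences in size, those of MAP3K7CL, MIR34B and MIRLET7F1 were also among the smallest p and are given above. Most of the others came from genes that varied widely between arrays of a diet. CYP2C45, a cytochrome P450 of chicken liver that drugs induce, lay between 11.66 and 12.78 (median 12.30) in HI0 and between 6.43 and 11.98 (median 11.02) in HI7.5. A single HI7.5 array held the 6.43, and the next lowest was at 10.76. The difference was -1.82 ± 0.88, with an interval of -3.66 to 0.02, and -1.02 without that array. HI15 spanned 6.84 to 13.39 for the same gene. DIO2, the deiodinase that activates thyroid hormone, was spread from 6.83 to 10.45 (median 8.31) in HI0 and from 8.09 to 10.56 (median 9.44) in HI7.5. The 2 diets overlapped over most of that range, and the difference was 0.95 ± 0.53, with an interval of -0.15 to 2.06.

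Other wide differences upward were 1.00 ± 0.48 for WDPCP, a planar cell polarity gene, 0.91 ± 0.39 for CDHR5, a cadherin of the brush border, and 0.84 ± 0.49 for ETNPPL, a lyase of phosphoethanolamine. TRPM8, a cold-sensing cation channel, lay between 5.47 and 6.33 (median 5.90) in HI0 and between 4.69 and 5.74 (median 5.15) in HI7.5, a difference of -0.72 ± 0.24. ARFGEF3 was at -0.74 ± 0.32 with 1 HI7.5 array at 8.47, and at -1.12 without that array. Over all probe sets, named or not, 2 reached a difference of 1 in log2.

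In 10 genes the 6 HI7.5 arrays and the 6 HI0 arrays did not overlap, 3 of them higher (0.0260% of genes) and 7 lower (0.0607%). With 6 arrays per diet, some of 11528 genes separate in this way by chance, and these counts were not tested against that. Besides TM4SF4, the higher genes were HACD2 and BCL9L. HACD2, a dehydratase of very long chain fatty acid elongation, lay between 9.59 and 9.79 (median 9.69) in HI0 and between 9.80 and 10.10 (median 9.93) in HI7.5, a difference of 0.26 ± 0.09. BCL9L, a coactivator of beta-catenin, was at 0.24 ± 0.09. The lower genes were CDCP1 and FAM110B at -0.42 and -0.22, the tetraspanin gene CD9 at -0.39, the transcription factor gene TWIST1 at -0.39, NETO1 at -0.37, NRAS at -0.21 and the adaptor gene PAG1 at -0.16. TWIST1 and NETO1 were the dimmest of these, with mean signals of 3.99 and 4.46 over all arrays. With every array given the same distribution (quantile normalization), TWIST1 was at -0.29 and NETO1 at -0.28. The small GTPase gene NRAS was tight within diets, at 7.09 to 7.20 (median 7.12) in HI0 and at 6.83 to 7.01 (median 6.94) in HI7.5. The 95% interval of PAG1 reached from -0.35 to 0.03 although its arrays did not overlap. BCL9L, CD9, NETO1, NRAS, PAG1 and TWIST1 were named after their values were seen.

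Most genes of mitosis lay below HI0. The list held kinases, cyclins, kinetochore and spindle genes, 55 of its 72 symbols were measured, and 51 were below 0 and 4 above, against 49.4% and 49.9% of all genes. At an unadjusted p of 0.05, 10 members (against 1.69% of all genes) were lower and 1 (against 0.954%) higher. The median difference was -0.26, against 0.00 over all genes, and members ran from -0.48 to 0.25. Earlier results of these data had already shown this direction, so the count is not independent evidence of it. In bulk tissue, fewer dividing cells and less RNA per cell cannot be told apart.

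The kinase gene AURKB, which acts on chromosome attachment and cytokinesis, had the lowest value of the list. It lay between 6.04 and 6.95 (median 6.44) in HI0 and between 5.62 and 6.44 (median 5.94) in HI7.5. The 2 diets overlapped, although every HI7.5 array was below the HI0 mean, and the difference was -0.48 ± 0.19. Its partners BIRC5 and INCENP in the chromosomal passenger complex were lower by smaller amounts. BIRC5, the survivin gene, was at 6.79 at the HI0 median and at 6.52 at the HI7.5 median, a difference of -0.28 ± 0.11, and INCENP, the scaffold, was at -0.27 ± 0.11. Spindle and kinesin genes included TPX2 at -0.38 ± 0.16, KIF20B at -0.39 ± 0.16 and KIF18A at -0.36 ± 0.17. CEP55, of the midbody, was at -0.37 ± 0.16, PLK4, of centriole duplication, at -0.36 ± 0.17, and CDC20 and CDC25A, which drive mitotic exit and entry, at -0.28 ± 0.13 and -0.26 ± 0.12. The 1 member above 0 at that p was the spindle checkpoint gene BUB3 at 0.25 ± 0.10. INCENP, TPX2, KIF18A, CEP55, PLK4, CDC20 and CDC25A were named after their values were seen.

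Well known proliferation genes, named after their values were seen, had differences of the same sign but wide errors. MKI67 was between 7.12 and 8.02 (median 7.20) in HI0 and between 6.50 and 7.54 (median 7.02) in HI7.5, a difference of -0.43 ± 0.22, with an interval of -0.89 to 0.03. Its 4 other probe sets were at -0.36, -0.49, -0.39 and -0.19. CDK1 was at -0.32 ± 0.26 and TOP2A at -0.34 ± 0.27, and CDK1 was at -0.14 without HI0 replicate 4.

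The mean of the mitotic genes per array, relative to the HI0 mean, ran from -0.29 to 0.32 (median -0.05) in HI0 and from -0.40 to 0.05 (median -0.26) in HI7.5. The 2 diets overlapped: HI0 replicates 2 and 4, at 0.26 and 0.32, were the high arrays, and HI7.5 replicate 6, at 0.05, was the highest of its diet. HI0 replicate 4 also had the highest list mean of its diet for macrophage genes, at 0.61, and for T and NK cell genes, at 0.31. Without it the mitotic median was -0.16, and without HI7.5 replicate 6 it was -0.30. The part of those cells in the mitotic result was not tested. Of the 55 genes, 44 were in the dimmer 50% of the probe sets. After quantile normalization, which gives every array the same distribution, the median was -0.20, with 2 members lower (against 1.31% of all genes) and 1 higher (against 1.46%). With the interquartile range of each array as a covariate the median was -0.26, with 14 members lower (against 2.03% of all genes) and 1 higher (against 1.62%).

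**Figure D2:**
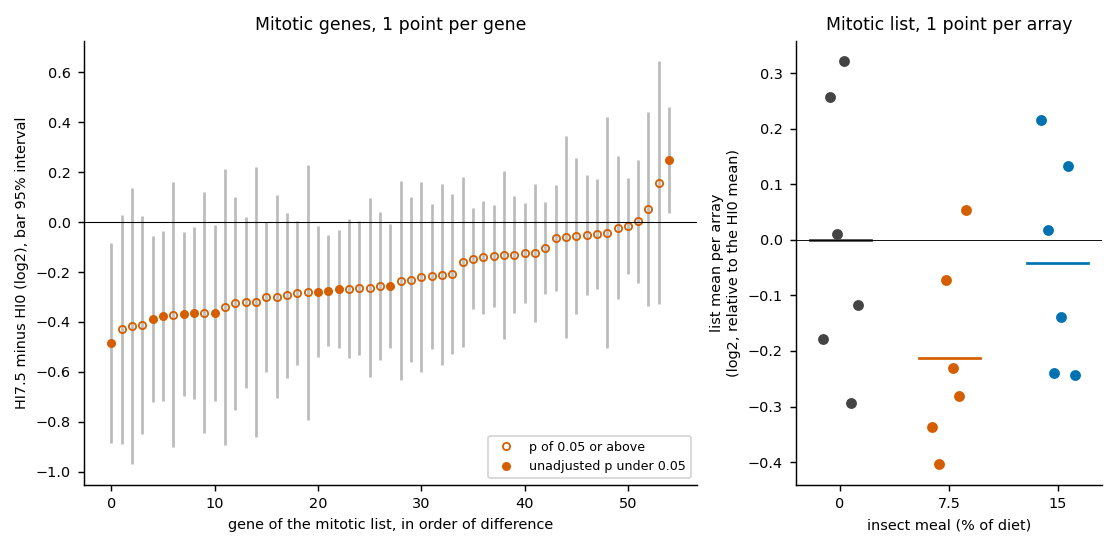
Left, the difference HI7.5 minus HI0 in log2 (vertical axis) of each of 55 mitotic genes in order of size (horizontal axis), with 95% intervals as bars; right, the list mean of each array relative to the HI0 mean (vertical axis) by meal level (horizontal axis), with diet means as lines. Of the genes, 51 lie below 0, and the array means of HI7.5, from -0.40 to 0.05, overlap those of HI0, from -0.29 to 0.32.

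At the higher meal level, the mean of the mitotic genes per array ran from -0.24 to 0.22 (median -0.06), which overlapped the arrays of both other diets. The median over genes was -0.05 in HI15 minus HI0, which shares the HI0 arrays with the comparison above, and 0.16 in HI15 minus HI7.5, which shares its HI7.5 arrays and in which 5 members were higher at an unadjusted p of 0.05 (against 1.61% of all genes). HI15 minus HI7.5 was 0.43 ± 0.16 for KIF20B and 0.29 ± 0.12 for CDC25A, and 0.04 ± 0.11 for BIRC5. Genes of DNA replication, which act before mitosis, had a median nearer 0. Their median over 48 measured genes was -0.10, with 43 below 0, and 1 was lower at an unadjusted p of 0.05 (against 1.69% of all genes), the DNA ligase gene LIG1 at -0.27 ± 0.11. With array width as a covariate 5 were lower (against 2.03%). Further members were CHAF1A, a histone chaperone subunit, at -0.18 ± 0.10, the cyclin gene CCNE1 at -0.17 ± 0.09 and the repressor gene E2F7 at -0.25 ± 0.14.

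The 392 microRNA genes had a median below 0, and most were dim. Their median difference was -0.07, with 267 of them (68.1%) below 0, 27 lower at an unadjusted p of 0.05 (against 1.69% of all genes) and 5 higher (against 0.954%). Of the 392, 217 were in the lowest 25% of signal, and 23 of the 27 lower ones came from it. With the covariate for array width the median was -0.02, 221 were below 0, 23 were lower (against 2.03% of all genes) and 13 higher (against 1.62%). After quantile normalization the median was -0.03, 222 were below 0, 19 were lower (against 1.31%) and 6 higher (against 1.46%). Members of the same genomic cluster can be cut from a shared transcript. Here they were placed together only by position in the RefSeq annotation of GRCg7b, with gaps of at most 10 kb, and a shared transcript was not tested. That gave 39 clusters of more than 1 measured microRNA gene. Of the 32 microRNA genes at an unadjusted p of 0.05, 13 were in 12 such clusters. In 1 cluster more than 1 member passed that p, MIR23B at -0.23 ± 0.11 and MIR27B at -0.48 ± 0.14.

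In the miR-34 cluster, MIR34B at -0.86 stood beside MIR34C, which was bright enough to read at 7.12 to 8.05 (median 7.84) in HI0 and at 6.92 to 7.87 (median 7.34) in HI7.5. The diets overlapped for MIR34C, with a difference of -0.31 ± 0.19, and MIR34A, which lies elsewhere, was at 0.06. MIRLET7F1 at -0.66 was clustered with MIRLET7F2 at -0.27 and MIRLET7D at -0.11. In the pairs of the miR-15 and miR-16 family, MIR16-2 and MIR15B were at -0.39 and -0.42, and MIR16C and MIR15C at -0.48 and -0.18. In the miR-17 cluster, which promotes proliferation in mammals, MIR17, MIR19B1 and MIR92A1 were at -0.34, -0.27 and -0.27, MIR18A and MIR19A at -0.08 and -0.03, and MIR20A at 0.26. MIR18A and MIR19A were both at a difference above 0 after quantile normalization, at 0.08 and 0.09. MIR181A1 and MIR181B1 had opposite signs, at 0.45 and -0.30. MIR1796 was the brightest microRNA gene with a large difference, at 7.99 to 9.04 (median 8.74) in HI0 and 7.38 to 8.72 (median 8.06) in HI7.5, or -0.60 ± 0.21. MIR34A, MIR34C, MIR15B, MIR15C, MIR18A, MIR19A, MIR19B1, MIR20A, MIR92A1, MIR181B1, MIRLET7D and MIRLET7F2 were named after their values were seen.

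Messages that miR-34 is known to repress in mammals were measured as 23 genes. Their median difference was 0.04, and 0 passed an unadjusted p of 0.05 in limma, higher (against 0.954% of all genes) or lower (against 1.69%). The 95% intervals of all 23 lay within 1.5-fold, against 93.5% of all genes. Examples were the deacetylase gene SIRT1 at 0.12 ± 0.10, CDK6 at 0.18 ± 0.15 and SNAI1 at 0.11 ± 0.10. The 16 measured p53 target genes had a median of 0.06, and MDM2, the p53 ligase, was at 0.17 ± 0.11. PPM1D, a phosphatase that dampens p53 signalling, was at -0.16 ± 0.07.

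The size and sign of differences varied with signal level. Probe sets were split by mean signal into 4 groups, each with 25% of them. The median difference was -0.07 in the dimmest group, -0.04 and 0.01 in the middle groups and 0.03 in the brightest. In the dimmest group 229 of 4558 probe sets (5.02%) were lower at an unadjusted p of 0.05 and 44 higher, whereas in the brightest 31 of 4556 (0.680%) were lower and 55 higher. After quantile normalization the median was 0.00 in each group, and the counts over all probe sets became 301 higher (1.65%) and 285 lower (1.56%). With array width as a covariate they were 356 (1.95%) and 400 (2.19%). MIR34B, MIRLET7F1, LRRC18 and MIR27B, dim genes named above, were at -0.75, -0.53, -0.42 and -0.41 after quantile normalization. These genes were chosen for a small p in the same arrays, and their differences were well beyond the -0.07 of the dimmest group. Their kept sign was thus likely beforehand and is not independent support for them. MIR18A and MIR19A, also dim, turned from -0.08 and -0.03 to 0.08 and 0.09.

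**Figure D3:**
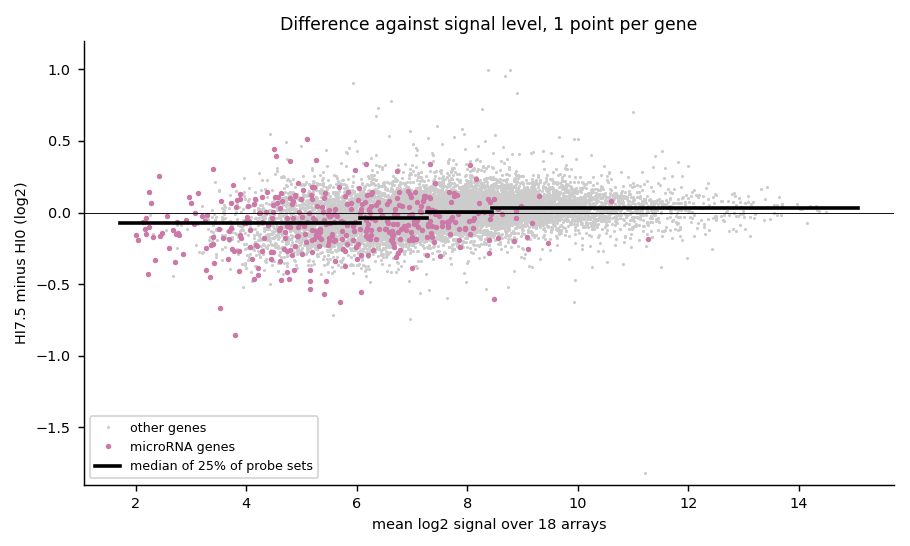
Difference HI7.5 minus HI0 in log2 (vertical axis) against the mean log2 signal over 18 arrays (horizontal axis) for each gene, with microRNA genes in colour and the median of each 25% of probe sets as a black line. The medians climb from -0.07 in the dimmest 25% to 0.03 in the brightest, and most microRNA genes sit to the left.

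Lipid genes gave small differences in both directions. Of 20 genes of fatty acid and triglyceride synthesis, 12 were above 0 and the median was 0.03. The 95% intervals of 19 lay within 1.5-fold, against 93.5% of all genes. FASN, the fatty acid synthase, was at 0.05 ± 0.15, with an interval of -0.27 to 0.37, and the desaturase gene FADS6 at 0.22 ± 0.13. HACD2 was the 1 member at an unadjusted p of 0.05, higher (against 0.954% of all genes). FASN was named after its values were seen. For fatty acid oxidation in mitochondria the median over 18 genes was -0.03, and the intervals of only 14 lay within 1.5-fold. CPT1A, the carnitine transferase that controls entry, was at -0.24 ± 0.29. Peroxisomal genes had a median of 0.01 over 22 genes, all with intervals within 1.5-fold.

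Most sterol genes lay below 0. Of 16 measured, 12 were below 0, with a median of -0.13, which was -0.07 without HI7.5 replicate 1. At an unadjusted p of 0.05, 2 were higher (against 0.954% of all genes) and 0 lower by limma (against 1.69%): ACAT2 at 0.38 ± 0.13 and INSIG2 at 0.29 ± 0.12. INSIG2, which retains the sterol-sensing complex in the endoplasmic reticulum, was between 9.88 and 10.60 (median 10.43) in HI0 and between 10.43 and 10.97 (median 10.67) in HI7.5. A single HI0 array held the 9.88, and the difference was 0.19 without it. STARD4, a sterol carrier that is induced when cholesterol is scarce, lay between 9.81 and 10.85 (median 10.26) in HI0 and between 9.06 and 10.35 (median 9.87) in HI7.5. Its ranges overlapped, at a difference of -0.47 ± 0.25. Further down the pathway, FDFT1, the squalene synthase, was at -0.36 ± 0.27, MVD at -0.20 ± 0.15 and SQLE, the squalene epoxidase, at -0.17 ± 0.15, while HMGCS1, at an early step, was at 0.17 ± 0.20. FDFT1, SQLE and HMGCS1 were named after their values were seen. The median of the list was -0.25 in HI15 minus HI0, which uses the same HI0 arrays.

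Of 22 genes of lipoproteins and lipid transport, 1 was higher (against 0.954% of all genes) and 1 lower (against 1.69%) at an unadjusted p of 0.05. SCARB1, the receptor of high density lipoprotein, was at 8.09 to 8.34 (median 8.24) in HI0 and at 8.23 to 8.87 (median 8.43) in HI7.5, a difference of 0.24 ± 0.10, and of 0.16 without HI7.5 replicate 5. FABP2, the fatty acid binding protein of gut, was dim and at -0.48 ± 0.15. APOA1 was at -0.07 ± 0.07. For bile acids the median over 13 genes was 0.02, and CYP7A1, the first enzyme of synthesis, was at -0.15 ± 0.38 with an interval of -0.94 to 0.64. CYP7A1 was named after its values were seen.

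In nitrogen metabolism, serine synthesis and 1 enzyme of arginine synthesis had the smallest p. Of 20 genes of amino acid shortage and serine synthesis, 13 were above 0, and PSAT1 was the 1 member higher at an unadjusted p of 0.05 (against 0.954% of all genes). SLC7A5, a transporter of large neutral amino acids, lay between 8.63 and 9.31 (median 8.76) in HI0 and between 8.93 and 9.20 (median 9.10) in HI7.5, a difference of 0.24 ± 0.12. CHAC1, which degrades glutathione under amino acid stress, was at 0.55 ± 0.29, but 1 HI7.5 array stood at 9.97, and the difference was 0.20 without it. SLC38A2, another transporter induced by shortage, was at 0.19 ± 0.15, and HI15 minus HI7.5 was -0.47 ± 0.15. Among 48 genes of amino acid catabolism the median was 0.02, and 1 was lower at that p (against 1.69%). It was ASS1, the argininosuccinate synthase, at 8.05 to 9.60 (median 9.02) in HI0 and at 7.76 to 9.02 (median 8.33) in HI7.5. Its ranges overlapped, with a difference of -0.52 ± 0.24, and HI15 minus HI7.5 was 0.54 ± 0.24. AGXT2 was at 0.41 ± 0.25 and HAL, the histidine lyase, at 0.34 ± 0.22.

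Purine synthesis and uric acid genes had a median of 0.07, with 15 of 22 above 0. By limma, 0 were higher (against 0.954% of all genes) or lower (against 1.69%) at an unadjusted p of 0.05. The bifunctional enzyme gene PAICS was at 0.28 ± 0.17, ADSL at 0.26 ± 0.13 and PPAT, the first enzyme of the pathway, at 0.21 ± 0.15. XDH, which makes uric acid, was at 0.21 ± 0.32, and GLUL, the glutamine synthetase, at 0.15 ± 0.18 in its brightest probe set and -0.10 in the other. Both were named after their values were seen.

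Genes that respond within hours to hormones and feeding varied between arrays of a diet. The immediate early genes had a median of 0.12 over 26 genes, 17 of them above 0, and the median ranged from 0.04 to 0.14 when 1 array was left out. SIK1, a kinase induced by cyclic AMP, lay between 9.38 and 9.90 (median 9.61) in HI0 and between 9.14 and 11.05 (median 10.25) in HI7.5. The HI7.5 arrays spread to both sides of HI0, at a difference of 0.53 ± 0.28, and HI15 minus HI7.5 was -0.99 ± 0.28. TRIB1, a pseudokinase, was at 0.46 ± 0.28. PCK1, the gluconeogenic carboxykinase, was at 0.41 ± 0.54, between 7.14 and 10.58 (median 9.19) in HI0 and between 8.12 and 11.22 (median 9.32) in HI7.5. Among the 25 genes of glucose metabolism the median was -0.04 and GYG2, a primer of glycogen, was at 0.31 ± 0.14. PCK1 was named after its values were seen.

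The machinery of energy and protein turnover was bounded closely. All 49 genes of oxidative phosphorylation had 95% intervals within 1.5-fold and 33 within 1.25-fold, at a median of 0.04. For the proteasome all 25 lay within 1.5-fold and 23 within 1.25-fold, at a median of 0.03. Of 53 cytosolic ribosomal protein genes all lay within 1.5-fold and 43 within 1.25-fold, at a median of -0.02. Over all genes, those shares were 93.5 and 48.5%. RPS28 and RPL23 were lower at an unadjusted p of 0.05 (2 of 53, against 1.69% of all genes), at -0.24 ± 0.08 and -0.18 ± 0.08, and another probe set of RPL23 had the opposite sign. Heat shock and folding genes had a median of 0.07, all 29 within 1.5-fold, with the chaperonin subunit gene CCT6A at 0.23 ± 0.11, or 0.14 without HI7.5 replicate 5. In the endoplasmic reticulum stress list the median was 0.01 over 38 genes, and CREB3L3, a liver transcription factor of lipid and acute phase genes, was at -0.26 ± 0.12.

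Defence genes lay on both sides of 0. For 37 interferon-stimulated genes the median was -0.03, with GBP4L lower at -0.27 ± 0.11 and the DNA sensor gene CGAS higher at 0.27 ± 0.12 at an unadjusted p of 0.05, 1 on each side (against 1.69% and 0.954% of all genes). Without HI7.5 replicate 5, CGAS was at 0.18. GBP4L was at 8.72 to 9.39 (median 8.77) in HI0 and at 8.43 to 8.82 (median 8.56) in HI7.5, with a single HI0 array at 9.39 and a difference of -0.17 without it. Of 46 acute phase and innate genes, the biotin-binding avidin gene AVD was at -0.39 ± 0.14 and the decoy receptor gene IL1R2 at 0.47 ± 0.22, or 0.26 without HI7.5 replicate 4. AvBD10, a beta-defensin expressed in chicken liver, lay between 11.46 and 12.44 (median 12.21) in HI0 and between 11.30 and 12.07 (median 11.76) in HI7.5, a difference of -0.32 ± 0.16. The complement and coagulation list had a median of 0.03 over 40 genes, with SERPINA10 at 0.32 ± 0.14.

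Xenobiotic genes had a median of 0.04 over 44 genes, and beside CYP2C45 the glutathione transferase family gene MGST3 was at 0.30 ± 0.14 and CYP3A5 at 0.33 ± 0.19. CYP1A1, the aryl hydrocarbon receptor target, was at 0.25 ± 0.20 and was named after its values were seen. The 31 antioxidant genes all had intervals within 1.5-fold (against 93.5% of all genes), at a median of 0.02, and NFE2L2 itself was at -0.19 ± 0.09. For genes of chitin and glycan breakdown the median was 0.02 over 23 genes, with the sialic acid lyase gene NPL at 0.30 ± 0.14, or 0.19 without HI7.5 replicate 3, and the chitinase-domain gene CHID1 at 0.24 ± 0.15. The transferrin receptor gene TFRC was at 0.32 ± 0.14, and its other probe set had the opposite sign. In the circadian list RORB was at -0.34 ± 0.12 and CLOCK at 0.23 ± 0.15.

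**Figure D4:**
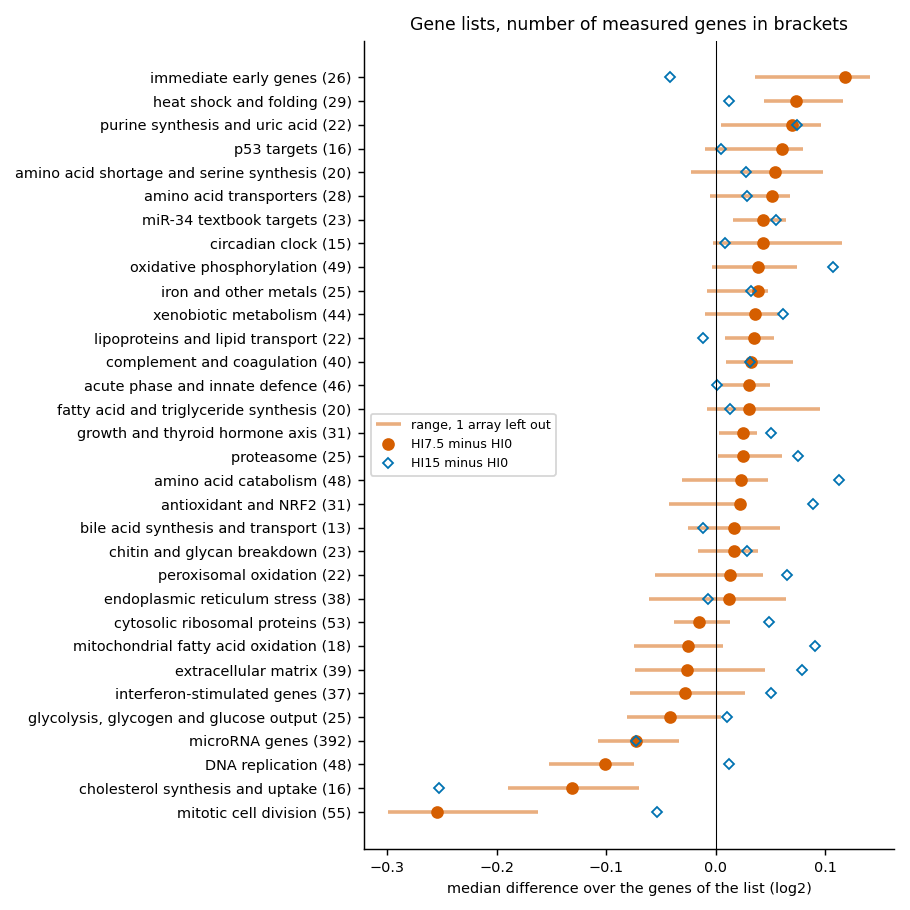
Median log2 difference (horizontal axis) over the measured genes of each list of a process or gene class, without the cell type lists (vertical axis, number of genes in brackets) for HI7.5 minus HI0 (filled circles, with the range of the median when 1 array is left out as bars) and for HI15 minus HI0 (open diamonds), 2 comparisons that share the HI0 arrays. The mitotic list lies lowest at -0.26 in HI7.5 minus HI0 and at -0.05 in HI15 minus HI0, and the other plotted medians of HI7.5 minus HI0 lie between -0.13 and 0.12.

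Markers of other cells in the liver were read for the same arrays. Erythrocyte genes had a median of 0.20 over 10 genes, and the globin genes HBA1 and HBAD were at 0.51 ± 0.36 and 0.52 ± 0.35. The erythrocyte list mean ran from -0.24 to 0.28 in HI0 and from -0.12 to 0.39 in HI7.5, so the diets overlapped. Medians of the other lists were 0.11 over 6 macrophage genes, 0.09 over 8 cholangiocyte genes and 0.05 over 11 endothelial genes. They were -0.07 over 14 genes of T and NK cells, -0.04 over 10 stellate cell and fibroblast genes and -0.06 over 16 pancreas and gut genes. For 6 B and plasma cell genes the median was -0.04, and for 7 heterophil and mast cell genes -0.02. For 7 thrombocyte, 12 muscle and 5 adipocyte genes it was 0.003, -0.03 and -0.01. Most genes of the T and NK cell, pancreas and gut, and muscle lists were dim, and the dimmest group of probe sets had a median of -0.07. After quantile normalization those lists were at -0.04, -0.001 and 0.04. The stellate cell and fibroblast list was then at -0.06 and the erythrocyte list at 0.22. Whether cell content or signal level gave the medians below 0 was not tested. Of the 8 cholangiocyte genes, 6 were above 0, and 2 were higher at an unadjusted p of 0.05 (against 0.954% of all genes), TM4SF4 and the stem cell and bile duct marker PROM1 at 0.37 ± 0.17. EPCAM, another of them, was at 0.08 ± 0.13. Of the T and NK cell genes, 9 of 14 were below 0, and their median was 0.04 without HI0 replicate 4. At an unadjusted p of 0.05, 2 of them were lower (against 1.69% of all genes), the kinase gene LCK at -0.33 ± 0.13 and the checkpoint gene CTLA4 at -0.28 ± 0.11, and 1 was higher (against 0.954%), the cytokine receptor gene IL7R at 0.41 ± 0.18. PROM1, LCK and CTLA4 were named after their values were seen. The part of these cells in any gene's difference was not tested.

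The third diet allowed the 7.5% level to be set against the midpoint of 0 and 15%. A gene off that midpoint does not follow a straight line with the meal. By limma 0 of 18226 probe sets passed an adjusted p of 0.05 (0%), and 626 (3.43%) an unadjusted p of 0.05. Of genes, 107 (0.928%) lay above the midpoint and 208 (1.80%) below it at the unadjusted p. HI15 minus HI7.5 gave 0 probe sets (0%) at an adjusted p of 0.05 by limma, and 186 genes (1.61%) higher and 109 (0.946%) lower at the unadjusted p. Of the 55 mitotic genes, 7 were below the midpoint at an unadjusted p of 0.05 by limma (against 1.80% of all genes). None was above it at that p (against 0.928%), and the median was -0.19. The midpoint contrast uses the same HI7.5 and HI0 arrays as the mitotic difference given above, so the count is not separate evidence.

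ACKR4, a scavenging receptor of lymphoid chemokines, was furthest from the midpoint by p. Its diet means were 7.71, 7.12 and 8.08 from 0 to 15% meal, and the HI7.5 arrays ran from 6.48 to 7.75 (median 7.13) against 7.51 to 7.94 (median 7.72) in HI0. The HI7.5 arrays were thus the most spread and the lowest, with a difference from the midpoint of -0.78 ± 0.18 (limma adjusted p = 0.999). HI15 minus HI7.5 was 0.96 ± 0.21 for this gene (limma adjusted p = 0.832). FAM110B, a protein of centrosomes, had means of 6.84, 6.62 and 7.01, and CDCP1 lay -0.35 from its midpoint. MIRLET7F1 had means of 3.76, 3.10 and 3.74. Above the midpoint were TLE1, at 0.33, CREB5, a transcription factor of the cyclic AMP response family, with means of 7.25, 7.85 and 7.25, BORCS5, of lysosome positioning, with 5.33, 5.77 and 5.24, and MIR146C-1, with 4.45, 4.84 and 4.35. For CREB5 and BORCS5 some HI7.5 arrays lay within the HI0 range.

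**Figure D5:**
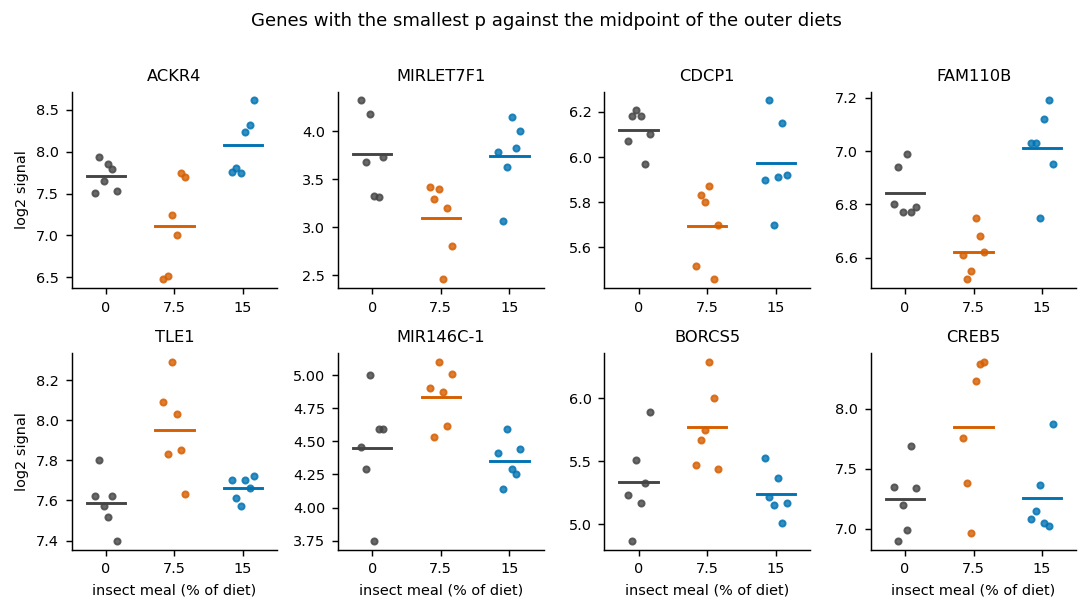
Log2 signal (vertical axis) of the 4 genes furthest below and the 4 furthest above the midpoint of the outer diets by p, for each array (points) and diet mean (lines) at 0, 7.5 and 15% meal (horizontal axis). In ACKR4 the HI7.5 mean of 7.12 is below 7.71 in HI0 and 8.08 in HI15, and in CREB5 the HI7.5 mean of 7.85 is above 7.25 in both outer diets.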

How the data were processed

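Liver RNA was hybridised to single-colour Affymetrix arrays. Per the submitters' processing notes, the authors ran RMA (Expression Console 1.4), which adjusts background, normalizes arrays against each other and joins probes into sets, and deposited the result as log2 values. Scanner files and detection calls were not used here, so dim probe sets stayed in, and the number of arrays limits the precision. The supplied platform annotation gave 1 symbol for 12300 probe sets, several for 256 and none for 5670; 11727 matched the RefSeq gene table of GRCg7b. Of several probe sets the brightest stood for the gene.

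A mean for each diet was fitted over 18 arrays in limma 3.58.1 (R 4.3.3, lmFit, eBayes), two-sided, with Benjamini-Hochberg adjustment over 18226 probe sets. The fit was also run on simulated data. Their noise was drawn separately for each probe set, so they do not carry the differences in array width. Of 45 gene lists, 2 were matched by symbol pattern, and the others held 1419 symbols, 969 of them measured. Named were the 12 smallest p and the 5 largest differences per direction, the 4 smallest p per direction against the midpoint, 4 genes per process list, 2 per cell type and microRNA genes at p under 0.05; other genes are marked. Comparisons, lists and rules were chosen with earlier results of these data known.

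The alternatives were a second quantile step, array medians set to 0, the brighter 50% of probe sets alone, a trended robust prior, array weights, only 12 arrays, title numbers as a block or covariate, single arrays left out and the mean of a gene's probe sets. Array width as a covariate and the omission of 2 pairs of arrays were added after seeing the data.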

Additional observations from a re-analysis of the deposited data

Results flagged for a closer look

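Of 436 groups of 6 arrays examined over 217 genes and the array widths, 23 held an array whose gap to its nearest neighbour exceeded 0.625 of the group's range (Dixon's critical value), and chance gives about 1 in 20. In HI7.5, CYP2C45 was at 6.43 on replicate 4 (others 10.76 to 11.98), MIR27B at 5.19 on replicate 1 (others 4.77 to 4.91) and MIRLET7D at 7.55 on replicate 6 (others 8.12 to 8.23). HI7.5 replicate 3, the array with the widest signal distribution, stood apart for SERPINA10 at 11.95 (others 11.42 to 11.59), NPL at 8.87 (others 8.08 to 8.37), MIR1B at 3.81 (others 4.51 to 4.68), MIR19B1 at 4.52 (others 5.16 to 5.35) and HADH at 10.52 (others 10.06 to 10.23). HI7.5 replicate 5 stood apart for CREB3L2, a transducer of endoplasmic reticulum stress, at 10.56 (others 9.57 to 9.91), APOA1 at 14.25 (others 14.05 to 14.11) and the heme oxygenase gene HMOX1 at 10.71 (others 10.28 to 10.37).

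In HI0, replicate 4 stood apart for GBP4L at 9.39 (others 8.72 to 8.87), INSIG2 at 9.88 (others 10.37 to 10.60) and SERPINF1 at 11.08 (others 10.27 to 10.51). HI0 replicate 5, with the narrowest distribution, stood apart for the cystine transporter gene SLC3A1 at 8.38 (others 9.15 to 9.60), the heme synthesis gene CPOX at 8.31 (others 8.82 to 8.89) and MIRLET7D at 8.0 (others 8.17 to 8.26). HI0 replicate 6 held MIR365-2 at 5.31 (others 4.71 to 4.90) and MIR135A2 at 3.67 (others 4.28 to 4.60), and replicate 2 held CD9 at 6.65 (others 6.28 to 6.40) and CCT2 at 9.69 (others 9.36 to 9.48). PCDH7 was at 9.09 on HI0 replicate 1 (others 7.27 to 7.86) and ACAT2 at 10.11 on replicate 3 (others 9.59 to 9.78).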

How the results depend on the processing

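In every alternative run, 0 probe sets passed an adjusted p of 0.05 by limma, in HI7.5 minus HI0, against the midpoint and in HI15 minus HI7.5. The count of higher probe sets at an unadjusted p of 0.05, 187, was 301 after quantile normalization and 356 with array width as a covariate. The lower count over all probe sets was 378. Among probe sets above the median level alone, 72 were lower and 133 higher. Fewer probe sets were tested in that run, so its counts do not compare directly with 187 and 378. Leaving out 1 array gave 148 to 305 higher and 266 to 682 lower; without HI7.5 replicate 6 they were 305 and 682, and without HI0 replicate 6 the lower count was 671. Title numbers fall into runs of 6, and arrays of the same run correlated at -0.29 to 0.01, with 0 of 6 above 0.1. Other pairs were at -0.46 to 0.39. These are not the correlations of whole signals, which lay at 0.966 to 0.988 between the 12 arrays. The runs were thus not taken as pairs, and with them as a block 175 were higher and 316 lower. HI15 comparisons were not run on 12 arrays.

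Of 4916 gene differences under alternatives, 4902 kept their direction, and 14 in 9 genes turned. Most of these genes were chosen for a small p or a large difference in the same arrays. That choice favours a kept direction, so the tally is not independent support for it. With HI7.5 replicates 1 and 3 left out for their globin signal, FBN2 was at 0.0017, EIF4EBP1 at -0.013 and MIR15C at 0.036. HI15 replicate 6, with the highest erythrocyte list mean (0.71), stayed in that fit. With the ends of the first principal component out, MIR15C was at 0.036, HADH at -0.0020 and MIR34A at -0.042. With array width as covariate, MIR34A was at -0.0065 and NR1H4 at -0.012. Single omissions gave NR1H4 from -0.0010 to 0.11, CYP7A1 from -0.37 to 0.019 and FASN from -0.047 to 0.12. The mean of its probe sets gave ECHS1 -0.12. MIR18A and MIR19A, which are not among those 9 genes, turned to 0.08 and 0.09 after quantile normalization. Of 1079 list medians, 5 moved by over 1 SD: microRNA genes to -0.02, -0.01 and -0.02 (array width, component ends, globin), and T and NK cells to 0.17 and erythrocytes to 0.51 among brighter probe sets. The causes were not tested.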
